A study of Mus musculus with 2 samples.

Results

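The IN2 cluster is 1 of the 12 groups into which the authors sorted EYFP+ cells of the adult mouse DG, and its name stands for an immature neuron population. Its 288 cells are all those that the authors assigned to it, of 10804 cells in all. They came from 1 WT library with 194 cells and 1 library labelled KO, called iKD here, with 94 cells. WT mice carried NestinCreERT2;VEGFWT/WT;ROSA-STOP-EYFP and iKD mice NestinCreERT2;VEGFfloxed;ROSA-STOP-EYFP, so the inducible Cre and the EYFP reporter were shared by both. At the start of the experiment the mice were aged 7–10 wk. They received tamoxifen (TAM) for 5 d and were used 21 d after TAM. The DGs of 5 mice per genotype were pooled before EYFP+ cells were sorted for a 10x single-cell library. Cre was driven by Nestin regulatory sequence, cells were sorted on EYFP after a Hoechst stain to tell live from dead cells, and genotype, library and pool of mice cannot be told apart. With 1 library per genotype, cells are not replicates and no test between genotypes was made. The cluster was also drawn from the same genes that are described here, so its difference from other cells is a description.

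Immature neurons of the DG are the postmitotic progeny of neural stem cells, and they are recognised by doublecortin (Dcx), Sox11, Igfbpl1 and the neuronal tubulin Tubb3 before they switch on mature neuronal genes. Microglia are the resident macrophages of the brain and do not arise from Nestin-expressing neural stem cells. They are recognised by the chemokine receptor Cx3cr1, the purinergic receptor P2ry12, the growth factor receptor Csf1r and the complement genes C1qa, C1qb and C1qc. The 4 genes given as markers of the cluster have other roles. Lsamp encodes a neuronal cell adhesion protein, Rbfox1 a neuronal splicing factor, Nav3 a neuron navigator protein and Ccnd3 a D-type cyclin.

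Judged by expressed genes, the IN2 cluster went against its name for most of its cells. In 265 of the 288 cells the microglia list made up 0.569–9.0% of the UMIs, and Csf1r was found in 262 of these 265 cells. The other 23 cells were poor in microglia transcripts, at 0–0.687% of the UMIs, and were rich in transcripts of neurons or macroglia. The split is that of a clustering described below, and the microglia shares of its sides overlap. Dcx was found in 10 of the 288 cells, of which 9 were among these 23. The group is therefore called the IN2 cluster throughout, and no new cell type name is given to it.

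The IN2 cells were shallow. They held a median of 3102.5 UMIs (range 1471–10893) and 1521 detected genes, against 7619.5 UMIs and 3051 genes in the 10516 other cells. The median depth was 3309 UMIs in WT and 2775 in iKD cells of the cluster. Of the 496 cells in the series with under 2000 detected genes, which is below the minimum the methods state, 216 lay in IN2. The median share of mitochondrial UMIs was 0.359% in IN2 and 0.821% in other cells, and within IN2 it was 0.272% in WT and 0.603% in iKD cells. In 8 WT and 0 iKD cells of IN2, UMIs of both Xist and Y-linked genes were found. Of the 9 barcodes present in both libraries, 1 belonged to an IN2 cell. No doublet caller was run, and the part of doublets and of depth in the results below was not tested. Levels are given as mean UMIs of a gene per 10,000 UMIs of a cell. Shares of cells with a UMI are given at the cells' own depth, unless they are said to be at 1500 UMIs, the number to which each cell was then thinned and which 287 of the IN2 cells reached. All intervals are 95% intervals and cover counting error only.

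Across the marker lists, neuronal and macroglial transcripts were higher and microglia transcripts lower in IN2 than in other cells. The 17 microglia genes summed to a level of 186 in IN2 and 516 in other cells, a log2 ratio of −1.47. The 16 long neuronal adhesion and synaptic genes, among them Lsamp and Rbfox1, summed to 43.3 in IN2 and 1.20 in other cells, a log2 ratio of 5.16. IN1, the other cluster named for immature neurons, had 505 for the microglia list and 6.71 for the long neuronal list, the highest value of the latter in any other cluster. Oligodendrocyte genes summed to 3.75 in IN2 and 0.620 in other cells (log2 ratio 2.58), genes of oligodendrocyte precursors to 0.585 and 0.0204 (4.29) and astrocyte genes to 7.21 and 3.52 (1.03). Genes were compared where the higher side had a level of 0.5 or more and a UMI in at least 10 cells, and a gene was past the fold where its log2 ratio was 1 or more in size. Of 4670 such genes, 35.4% were past the fold, 15.3% higher and 20% lower in IN2. Of the microglia list, all 17 genes passed this filter, 14 were lower past the fold and 0 were higher. Of the long neuronal list, all 16 passed and all 16 were higher, but most of them passed through the level in IN2 alone, so this count adds nothing to the levels.

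**Figure D1:**
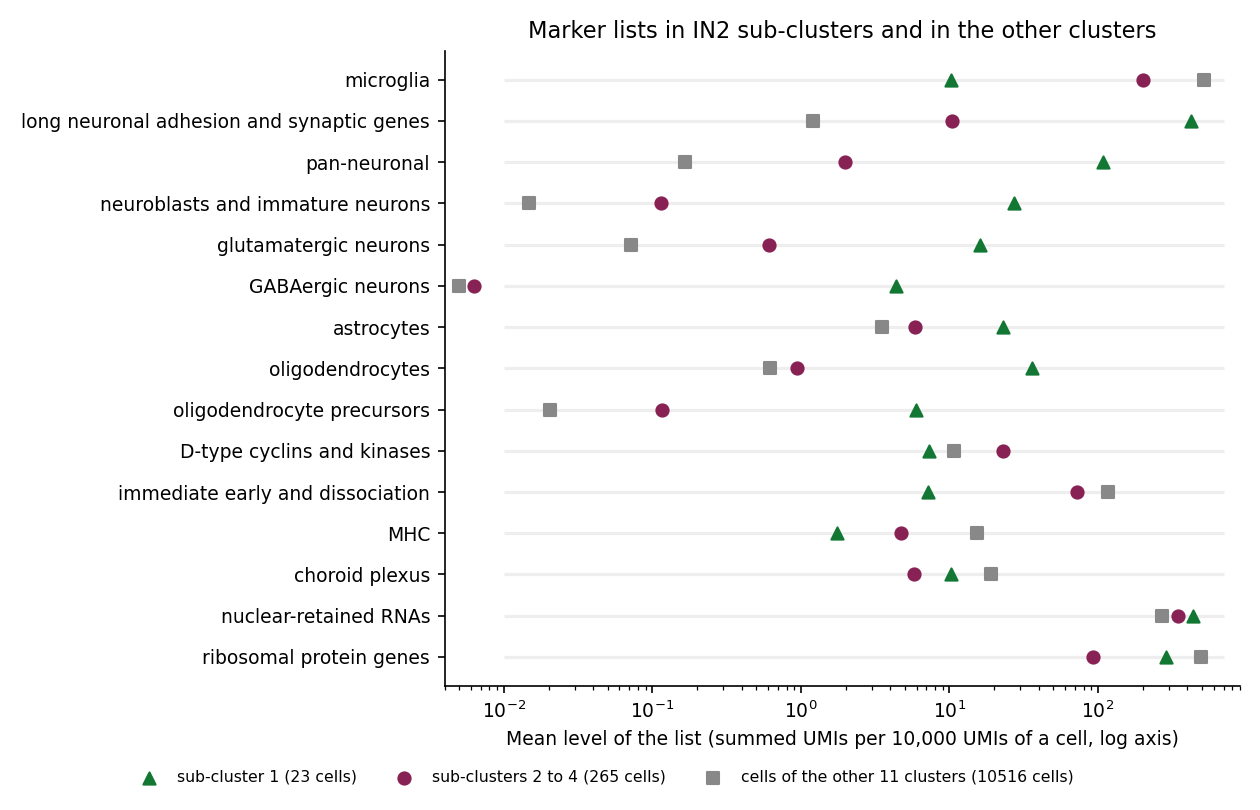
Summed level of marker lists (UMIs per 10,000 UMIs of a cell, log axis) in the 23 cells of IN2 sub-cluster 1 (triangles), the 265 cells of sub-clusters 2 to 4 (circles) and the 10516 cells of the other clusters (squares). The microglia list stands at 10.3 in sub-cluster 1 and 201 in sub-clusters 2 to 4, and the long neuronal list at 422 and 10.4.

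The 4 markers fell into 2 pairs. Lsamp (chr16:39984361-42181679, GRCm38) had a level of 7.98 in WT and 5.79 in iKD cells of IN2, and 0.0937 in other cells. Rbfox1 (chr16:5885355-7411526) had 4.51 in WT, 3.39 in iKD and 0.587 in other cells. These averages came from few cells. Lsamp UMIs were found in 80 of 288 cells and Rbfox1 UMIs in 105, and 83.6% of the Lsamp UMIs and 67.2% of the Rbfox1 UMIs lay in the 23 cells poor in microglia transcripts. Nav3 (chr10:109681259-110456204) had 28.5 in WT, 31.1 in iKD and 16.1 in other cells, and Ccnd3 (chr17:47505051-47599691) had 18.1, 16.7 and 7.0. Nav3 and Ccnd3 were spread over most of the cluster, with UMIs in 272 and 247 of its cells. In contrast to the first pair, 4.25% of the Nav3 UMIs and 0.778% of the Ccnd3 UMIs lay in the 23 cells.

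At the same depth of 1500 UMIs, a Lsamp UMI was found in 16.7% of IN2 cells, 1.26% of other cells and 0 of 134 cells of the Astrocytes cluster, which allows a share of up to 2.72%. For Rbfox1 the shares were 23%, 7.88% and 1.49%. Of the 134 cells of the Astrocytes cluster 130 are from the iKD library and 4 from WT, so their shares describe almost only the iKD library. Whether their UMIs of these genes are free RNA or their own was not tested. In the other clusters without Astrocytes, Lsamp was found at this depth in 1.87% of WT and 0.635% of iKD cells, against 18.0% and 14% in IN2. For Rbfox1 the shares were 8.04% and 7.88%, against 25.3% and 18.3% in IN2. The part of free RNA was not tested. Nav3 was found in 87.1% of IN2, 82.3% of other and 28.4% of Astrocytes cells, and Ccnd3 in 76.3%, 60.1% and 31.3%. The next highest cluster was IN1 for Lsamp (level 0.672), Rbfox1 (1.25) and Nav3 (19.8), and IPC2 for Ccnd3 (9.09). Before thinning, the median depth was 3102.5 UMIs in IN2 and 7722 in the Astrocytes cluster.

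Defining microglia genes were present in IN2 at reduced levels. Cx3cr1 had a level of 17.9 in IN2 and 40.4 in other cells, and P2ry12 14.4 and 30.1. Csf1r, the receptor on which microglial survival depends, had 17.9 and 25.9. The genes were not lowered by the same factor. Sall1, a transcription factor of microglial identity, had a level of 3.24 in IN2 and 3.59 in other cells, whereas C1qa had 16.2 and 71.6, Trem2 4.07 and 16.5, and Aif1, which encodes IBA1, 1.15 and 5.61. At 1500 UMIs a Cx3cr1 UMI was found in 83.3% of IN2 cells, 98.5% of other cells and 29.1% of the cells of the Astrocytes cluster.

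Neuronal and microglia transcripts were then looked for in the same cells. At least 10 microglia and at least 3 long neuronal UMIs were found together in 95 of 288 IN2 cells (33.0%, 27.6–38.7). By library these were 87 of 194 WT cells (44.8%, 37.7–52.1) and 8 of 94 iKD cells (8.51%, 3.75–16.1). A further 173 cells (60.1%) met the microglia limit alone, 20 cells (6.94%) met the neuronal limit alone, and 0 met neither. In all, 82 IN2 cells held no UMI of the long neuronal list. The same count gave 1124 of 10516 other cells (10.7%) and 43 of 50 IN1 cells (86.0%) with both. IN1 was deeper, with a median of 8697.5 UMIs. At 1500 UMIs the order of the clusters was the other way round, with both in 42 of 287 IN2 cells (14.6%, 10.8–19.3), 3 of 50 IN1 cells (6.0%, 1.25–16.5) and 28 of 10516 other cells (0.266%), and the intervals of IN2 and IN1 overlap.

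**Figure D2:**
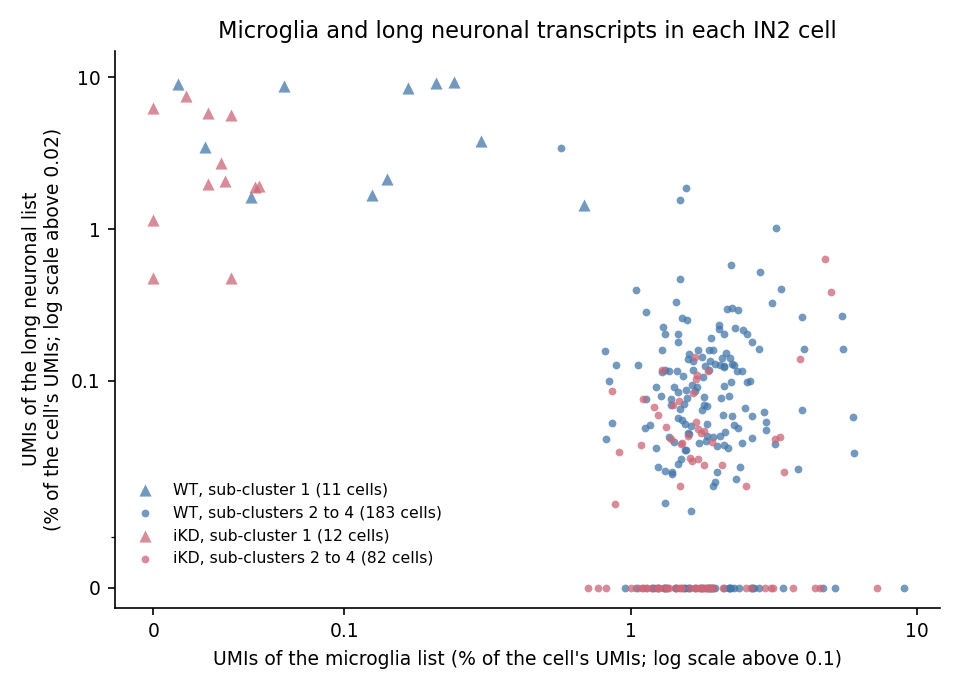
Share of UMIs on the microglia list (x axis, percent) against the share on the long neuronal list (y axis, percent) for each of the 288 IN2 cells, on axes that are linear near 0 and logarithmic above. Triangles are sub-cluster 1, circles sub-clusters 2 to 4, and the color gives the genotype. Most of the 23 cells of sub-cluster 1 lie apart, and its medians are 0.0409% microglia and 2.72% long neuronal UMIs.

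Clustering of the 288 cells gave 4 sub-clusters, of which 1 held most of the neuronal transcripts. Sub-cluster 1 had 23 cells, 11 WT and 12 iKD, and these were the same 23 cells when 3 or 6 groups or 500 variable genes were asked for. Its cells had 0–23 microglia UMIs and 32–718 UMIs of the long neuronal list. Its leading genes against the other IN2 cells were Dnajc6, Frmd5, Myt1l, Edil3 and Sh3rf3. Myt1l, a transcription factor of neurons, had a level of 7.87 in sub-cluster 1 and 0.0222 in the other IN2 cells, and Frmd5 had 8.88 and 0.0262. Its cells made up 11.9% of all UMIs of the cluster, but 79.8% of those of the long neuronal list (5268 of 6598), 81.1% of the pan-neuronal list, 97.5% of the list of neuroblasts and immature neurons and 0.584% of the microglia list (112 of 19190). Sub-cluster 1 was itself mixed and is given no name.

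The 23 cells were sorted by the list with the most UMIs among those of neuroblasts and immature neurons, glutamatergic neurons, astrocytes, oligodendrocytes and oligodendrocyte precursors, a rule chosen after the values were seen. The glutamatergic list led in 8 cells, 4 WT and 4 iKD, with 6–39 UMIs. These cells had 7–85 UMIs of Meg3, a long noncoding RNA abundant in neurons, and 2–27 of Grin2a, a subunit of NMDA receptors. Grin2a is on the glutamatergic list, so its presence partly follows from the sorting, as for any gene of a leading list. Slc17a7 had 0–3 UMIs in these cells. The list of neuroblasts and immature neurons led in 6 cells, 0 WT and 6 iKD, with 20–118 UMIs. Each of these 6 held Dcx (1–8 UMIs), Sox11 (3–32), Igfbpl1 (5–48) and Stmn2 (2–29). By these markers alone, they are the cells of the cluster that come nearest to its name. The granule neuron factor Prox1 had 0–6 UMIs in them. In 3 of them both Gad1 and Gad2, the enzymes that make GABA, were found, and in 2 the progenitor factor Eomes.

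The oligodendrocyte list led in 4 cells, 3 WT and 1 iKD, with 33–163 UMIs. The myelin gene Mbp (7–31 UMIs) and the transcription factor St18 (11–74) were found in each. The astrocyte list led in 3 cells, 2 WT and 1 iKD, with 79–142 UMIs. They held 49–57 UMIs of Slc1a2, the main astrocytic glutamate transporter, 76–164 of Gpc5 and 91–377 of Lsamp, so cells led by glial genes also carried the Lsamp signal. Their long neuronal list as a whole had 257–644 UMIs, and that of the cells led by oligodendrocyte genes 32–136. The list of oligodendrocyte precursors led in 2 WT cells, with 8 and 12 UMIs. The lead is of 1 UMI in the first of them, which had 7 UMIs of the glutamatergic list and also held 63 pan-neuronal, 263 long neuronal and 28 Meg3 UMIs.

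**Figure D3:**
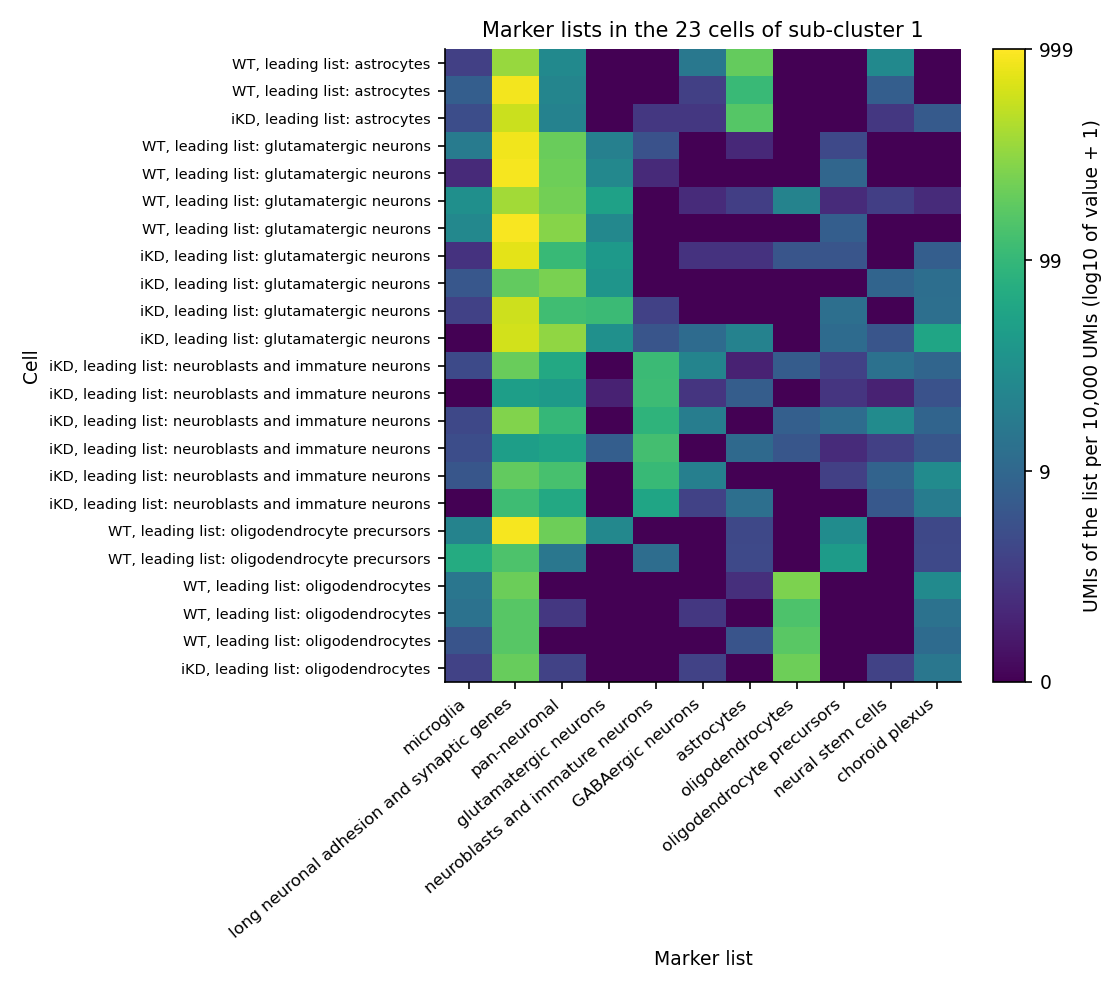
UMIs of each marker list (columns) per 10,000 UMIs, on a log color scale, in each of the 23 cells of sub-cluster 1 (rows, with genotype and leading list). The microglia list takes at most 0.687% of the UMIs in any row, and the lists of neuroblasts, oligodendrocytes and astrocytes are high in 6, 4 and 3 different cells.

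Sub-clusters 2 to 4 held 265 cells, 183 WT and 82 iKD, and each was rich in microglia transcripts. The median share of microglia UMIs was 2.39% in the 63 cells of sub-cluster 2, 1.74% in the 49 of sub-cluster 3 and 1.62% in the 153 of sub-cluster 4, against 5.15% in other cells of the series. The leading genes of sub-cluster 2 included Ctsl, a lysosomal protease (7.47 against 1.25 in the other IN2 cells), and Gimap6 (1.22 against 0.123). Those of sub-cluster 3 included Gabpa (0.696 against 0.122), and those of sub-cluster 4 Iqcn (1.04 against 0.224) and Gm42601 (0.549 against 0.105). The median mitochondrial share was 0.960% in sub-cluster 2, 0.743% in sub-cluster 3 and 0.207% in sub-cluster 4.

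Without sub-cluster 1, long neuronal transcripts were still above those of other cells, but the excess was smaller. The list summed to 10.4 in sub-clusters 2 to 4 and 1.20 in other cells, a log2 ratio of 3.11, and the microglia list to 201 and 516, a log2 ratio of −1.36. Lsamp had a level of 1.40 in these cells and 0.0937 in other cells, and was found at 1500 UMIs in 12.1% of the cells. The genes highest against other cells included Mdga2 (log2 ratio 4.46), Adgrb3 (4.04), Lsamp (3.76) and Nlgn1 (3.75), which encode neuronal adhesion proteins or receptors. The list of neuroblasts and immature neurons summed to 0.114, and Dcx was found in 1 of the 265 cells. Oligodendrocyte genes summed to 0.941 in these cells and 0.620 in other cells (log2 ratio 0.59). Genes of oligodendrocyte precursors summed to 0.115 and 0.0204 (2.04), and astrocyte genes to 5.84 and 3.52 (0.73). Of 4531 genes that passed the filter, 34.2% were past the fold, 13.8% higher and 20.3% lower in sub-clusters 2 to 4.

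Markers of other populations had low levels over all IN2 cells or were at 0, but several lists exceeded their level in other cells. Granule neuron genes summed to 0.415 in IN2 and 0.222 in other cells, and Prox1, the transcription factor of granule neurons, had a level of 0.362 and 0.211. Prox1 was found in 8.68% of IN2 and 13.2% of other cells at their own depth, but at 1500 UMIs in 4.88% (2.69–8.05) and 2.87%. Genes of neural stem cells summed to 0.561 and 0.184, of intermediate progenitors to 0.775 and 0.00421, and of GABAergic neurons to 0.355 and 0.00501. In the same order, they stood at 4.79, 9.16 and 4.37 in sub-cluster 1 and at 0.194, 0.0469 and 0.00631 in sub-clusters 2 to 4. By genotype they summed to 0.372, 0.0739 and 0.117 in WT and 0.952, 2.22 and 0.845 in iKD cells of IN2. The 5 erythroid and the 5 fibroblast genes were at 0 UMIs in IN2. Of the 9 genes of border macrophages, 7 were at 0 (Cd163, F13a1, Lyve1, Pf4, Cbr2, Ms4a7 and Mgl2), and Stab1, which microglia also express, made up most of the list with a level of 3.33. Of the lists of monocytes and neutrophils and of T and NK cells, 6 of 7 genes were at 0 in each. Genes of endothelium, mural cells and ependyma summed to 0.331, 0.0374 and 0.00470, against 0.224, 0.0178 and 0.0392 in other cells, and B cell genes to 0.681 against 1.80. Choroid plexus genes summed to 6.11 and 19.0, the latter mostly from the Astrocytes cluster.

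Of the 5 D-type cyclins and kinases, 3 passed the filter, and Ccnd3 was higher and Ccnd1 lower past the fold in IN2. Cdk6 had a level of 3.01 in IN2 and 1.95 in other cells, Ccnd1 0.505 and 1.33, and Cdk4 0.204 and 0.402. Ccnd2 had 4.50 in sub-cluster 1 and 0.0358 in sub-clusters 2 to 4, the reverse of Ccnd3, which had 0.938 and 19.0. Genes of proliferation such as Mki67 and Top2a summed to 0.491 in IN2 and 0.708 in other cells.

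The genes with the most UMIs in IN2, a ranking that is not per length, included Malat1 with a level of 334, Gm42418 (90.9), Cst3 (63.6), Csmd3 (59.3), Plxdc2 (50.3), Elmo1 (44.4), Srgap2 (44.2), Tanc2 (43.2) and Nav2 (41.6). In other cells they had 260, 40.7, 390, 34.5, 28.0, 19.1, 23.5, 22.2 and 14.4, in the same order. Cst3, which encodes the secreted protein cystatin C, was the only one of these 9 with a lower level in IN2. Gm42418 overlaps AY036118 in the annotation, so their counts are uncertain. The highest ratios over other cells included those of Gpc5 (6.70 on the log2 scale), Pcdh9 (6.66), Slc24a2 (6.51), Meis2 (6.38), Auts2 (6.37), Kirrel3 (6.35), Nkain2 (6.30), Gabrb1 (6.22), St6galnac3 (6.21), Ntm (6.21), Npas3 (6.20), Lsamp (6.13), Magi2 (6.05) and Tmeff2 (6.05). Each of these had a higher level in sub-cluster 1 than in sub-clusters 2 to 4, such as Gpc5 with 24.0 and 0.257. In sub-clusters 2 to 4 their log2 ratios over other cells ran from 0.25 (Tmeff2) to 5.53 (Gabrb1). The lowest ratios included Sec61b, of the protein translocation channel (−3.59; 0.0771 in IN2 and 1.04 in other cells), Atp5e, of the ATP synthase (−3.41; 0.146 and 1.65), the mitochondrial ribosomal gene Mrpl18 (−3.28), Yif1b (−3.25), Tmed3 (−3.22), the glycolytic enzyme gene Gapdh (−2.87; 0.623 and 4.63) and Rpl39 (−2.84; 0.734 and 5.31).

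IN2 levels followed the genomic span of the gene, from its annotated start to its end. The median log2 ratio of IN2 over other cells was −1.43 for 934 genes that span under 5 kb, −0.63 for 5–20 kb, 0.13 for 20–50 kb, 0.59 for 50–100 kb, 0.92 for 100–200 kb and 1.70 for the 749 genes of 200 kb or more. The ratio was above 0 for 8.99% of the shortest and 98.3% of the longest group. These genes had a level of at least 0.1 in IN2 or in other cells, with no minimum of cells. A gene could enter through either side alone, so the shares above 0 partly follow from this filter. At a level of at least 0.5 the median of the longest group was 1.28. In sub-clusters 2 to 4 the medians ran from −1.49 to 1.21 in the same order, with 533 genes in the longest group. Genes of 100 kb or more took a median of 39.6% of the UMIs of an IN2 cell, 39.9% in WT and 39.5% in iKD, and 19.5% in other cells. Of the other clusters, IN1 had the highest share with 21.9% and the undefined cluster the lowest with 5.12%. The 4 markers span 2197 kb (Lsamp), 1526 kb (Rbfox1), 774.9 kb (Nav3) and 94.6 kb (Ccnd3). Genes are not independent, and the levels of long genes were among those that defined the cluster.

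**Figure D4:**
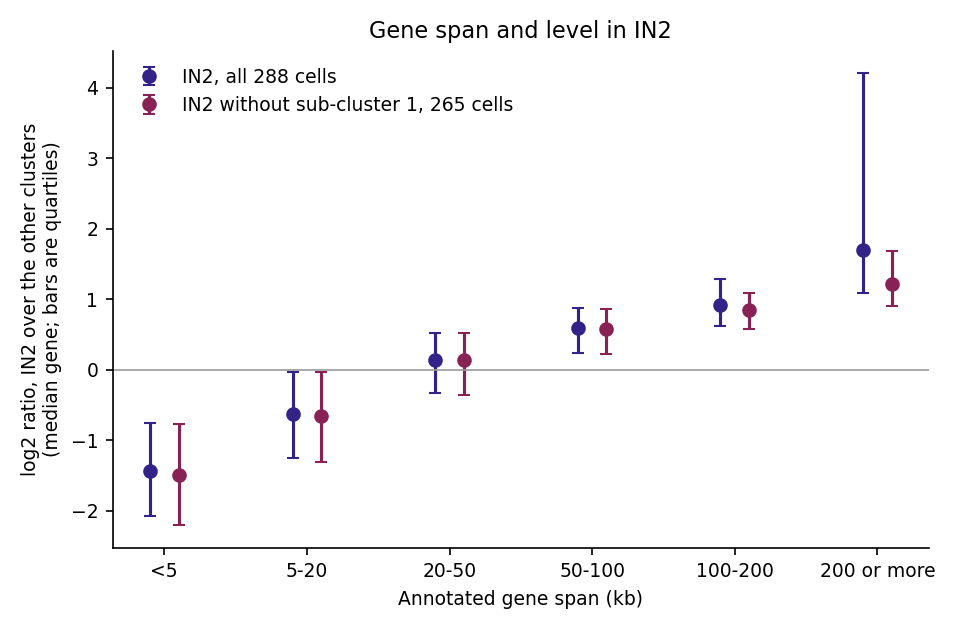
Log2 ratio of the level in IN2 over other cells (y axis) by genomic span of the gene in kb (x axis, 6 groups), for all IN2 cells and for sub-clusters 2 to 4, as medians with the middle 50% of genes. The medians run from −1.43 under 5 kb to 1.70 at 200 kb or more in all IN2 cells, and from −1.49 to 1.21 in sub-clusters 2 to 4.

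Ribosomal protein RNAs were lower in IN2, while the sum of 5 RNAs that stay in the nucleus was above that of other cells. Ribosomal protein genes, which are short, summed to 108 in IN2 and 491 in other cells, a log2 ratio of −2.18. Of the 85 that passed the filter, 80 were lower past the fold and 2 higher, where 20% of all genes were lower and 15.3% higher. The nuclear-retained RNAs summed to 355 and 269, and 2 of the 5 were higher past the fold, where 15.3% of all genes were. Meg3, named above as abundant in neurons, was among them (3.87 and 0.0570, log2 ratio 5.86). Of its UMIs, 78.6% lay in sub-cluster 1. Kcnq1ot1, an antisense RNA that silences its imprinted domain, had a level of 2.80 in IN2 and 0.940 in other cells, Xist 12.6 and 7.05, Neat1 1.63 and 0.914, and Malat1 334 and 260. Malat1 carried the sum, and it did not exceed other cells in all of the cluster, with a level of 473 in sub-cluster 2, 470 in sub-cluster 3 and 227 in sub-cluster 4. Ribosomal protein genes summed to 92.5 in sub-clusters 2 to 4 and 287 in sub-cluster 1. Mitochondrial genes summed to 55.4 in IN2 and 85.1 in other cells.

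Between genotypes, Vegfa was reported first, since it is the floxed gene. In IN2, 9 Vegfa UMIs (4.12–17.1) were counted in 5 of 194 WT cells (2.58%, 0.842–5.91) and 3 UMIs (0.619–8.77) in 3 of 94 iKD cells (3.19%, 0.663–9.04). The intervals overlap, and a difference was not detectable at this depth. Reads of a 3′ library lie near the end of a transcript, and where the floxed part lies is not given in the sources used here, so these counts check neither the excision nor the labels. Of the 12 UMIs, 6 lay in 4 of the 23 cells of sub-cluster 1, among them the 3 cells led by the astrocyte list. Vegfa was found in 133 of 10516 other cells (1.26%).

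Within IN2, 324 of 4294 genes (7.55%) were past the fold between genotypes, 4.87% higher and 2.68% lower in iKD. The balance depended on the cells and the filter, with 293 genes higher and 529 lower in male cells and 2699 and 2751 with no filter on level. The filter admits a gene through the genotype where it is high, and at these depths many counts were small. The gene with the largest ratio was Ttr, transthyretin, a secreted carrier of thyroid hormone made by the choroid plexus. It had a level of 0.549 in WT and 15.4 in iKD (38 and 426 UMIs, log2 ratio 4.78, 4.30 to 5.30), and was found in 29 of 194 WT and 93 of 94 iKD cells. The difference was not particular to IN2. In the other clusters without Astrocytes, Ttr was found in 516 of 5345 WT cells (9.65%) and 5025 of 5037 iKD cells (99.8%), with a log2 ratio of 6.10. The Astrocytes cluster had a level of 1019. A second gene of the choroid plexus, Enpp2, was higher in iKD cells of sub-clusters 2 to 4 (7 and 22 UMIs, log2 ratio 2.65) and in the other clusters (3.72). Over all IN2 cells Enpp2 had 33 and 32 UMIs (1.46). In sub-cluster 1 it went the other way, with a level of 4.79 in WT and 2.30 in iKD (26 and 10 UMIs).

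The next genes in order were those of newborn neurons, and they lay in a few iKD cells. Dcx had 2 UMIs in WT and 33 in iKD (log2 ratio 4.66, 2.69 to 7.76). The microtubule regulators Stmn1 (10 and 180 UMIs, 4.70) and Stmn2 (5 and 83, 4.15), the tubulin Tubb2b (10 and 142, 3.74), the ubiquitin hydrolase Uchl1 (4 and 36, 3.61), the cyclin Ccnd2 (5 and 95, 4.36), Adarb2 (8 and 66, 3.50), the actin-binding Tmsb10 (10 and 89, 3.40) and the noncoding 2610307P16Rik (6 and 50, 4.04) followed the same course. Without sub-cluster 1 the counts were 4 and 3 for Stmn1, 0 and 2 for Dcx, 2 and 1 for Ccnd2 and 1 and 0 for Stmn2. The list of neuroblasts and immature neurons summed to 0.180 in WT and 6.57 in iKD cells of IN2, and to 0.0987 and 0.147 without sub-cluster 1. These differences thus rested mostly on sub-cluster 1, which held 12 iKD cells, among them the 6 described above. Dcx was found in 8 of the 12, and the part of the 6 cells was not counted for each gene.

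The long neuronal list had near equal sums in the genotypes over all IN2 cells, and a lower one in iKD once sub-cluster 1 was left out. Over all IN2 cells the list summed to 43.0 in WT and 43.7 in iKD (log2 ratio 0.02, −0.06 to 0.10). Few cells set this balance, since the log2 ratio was 1.01 (0.89 to 1.13) without the 10 cells with the most UMIs of the list, 0.56 in female and −0.25 in male cells. In sub-clusters 2 to 4 it summed to 13.4 in WT and 3.76 in iKD (−1.83, −2.09 to −1.57). The genotypes were spread unequally over these sub-clusters, with 113 of 183 WT and 40 of 82 iKD cells in sub-cluster 4, and the difference was not alike in them. Within sub-cluster 4 the list summed to 18.5 in WT and 2.97 in iKD (−2.63, −3.16 to −2.15). Within sub-cluster 3 it summed to 3.96 and 1.82 (−1.12, −2.23 to −0.12). Within sub-cluster 2 it summed to 5.95 and 6.96 (0.23, −0.19 to 0.64), an interval that includes 0. Of the members, 13 passed the filter in sub-clusters 2 to 4 and 12 were lower past the fold in iKD, but they passed mostly through their level in WT, so this count adds nothing to the levels. Of the 4096 genes compared there, 7.08% were past the fold, 3.76% lower and 3.32% higher. Kcnip4, a modulator of potassium channels, had 114 UMIs in WT and 2 in iKD (−4.14, −7.20 to −2.25). Dlg2, a postsynaptic scaffold, had 76 and 3 (−2.95), Opcml 65 and 1 (−4.07, −9.40 to −1.55) and Lsamp 178 and 20 (−1.67, −2.42 to −1.0). The genes of the most negative ratio in these cells, taken for that ratio, included further neuronal genes. Dlgap1, another postsynaptic scaffold, had 95 and 1 UMIs (−5.18, −10.5 to −2.66), the growth factor Nrg3 66 and 0, and Hs6st3 71 and 0.

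Over sub-clusters 2 to 4 together, the difference was seen in the shares of cells too, also at equal depth. A UMI of the long list was found in 145 of 183 WT cells (79.2%) and 38 of 82 iKD cells (46.3%) of sub-clusters 2 to 4. After thinning to 1500 UMIs the shares were 61.2% in WT (112 of 183, 53.7–68.3) and 30.9% in iKD (25 of 81, 21.1–42.1). At least 0.1% of the UMIs lay on the list in 66 of 183 WT and 8 of 82 iKD cells. The WT cell with the most, 372 of its 10893 UMIs, also held 159 pan-neuronal and 62 microglia UMIs, and the highest iKD cell had 37 of 5803. Without the 10 cells with the most UMIs of the list the log2 ratio was −1.77 (−2.15 to −1.41). A smaller difference of the same direction was present outside IN2. In the other clusters without Astrocytes the list had 1.46 in WT and 0.935 in iKD, and at 1500 UMIs 17.9% and 12.3% of the cells held a UMI. In IN1 the shares were 24 of 41 WT and 6 of 9 iKD cells. As a library-wide level moved with genotype outside IN2 too, its part in the IN2 difference was not tested.

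**Figure D5:**
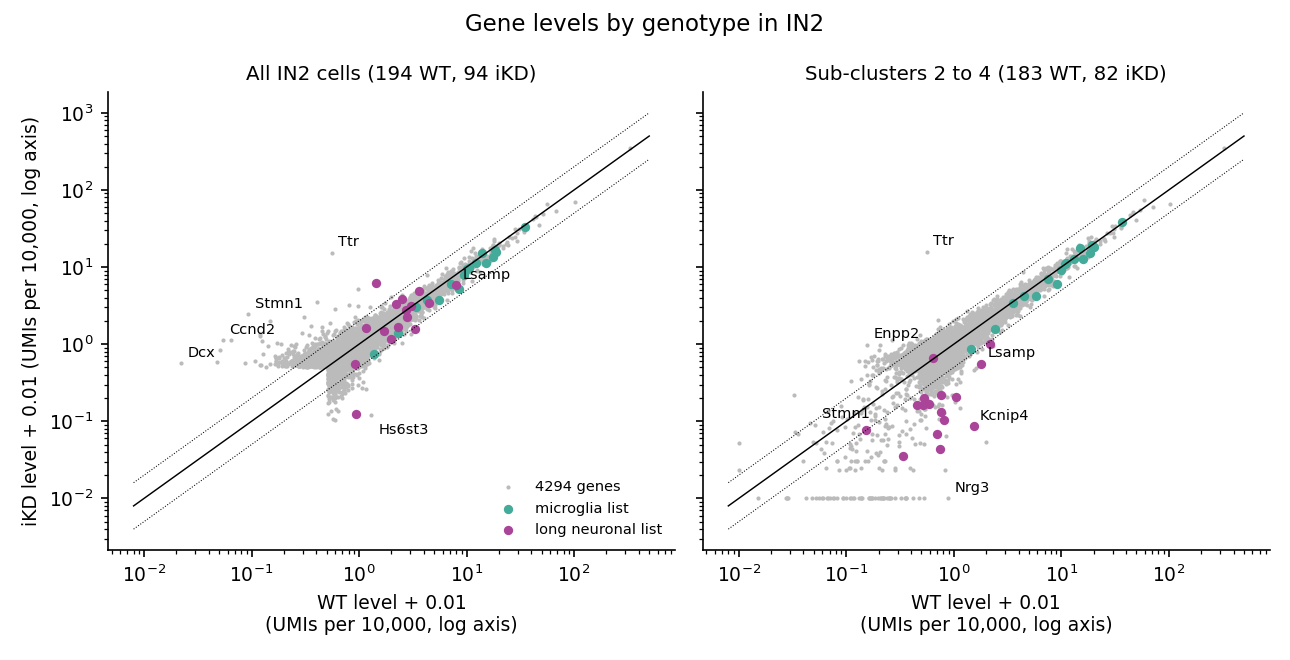
Levels in WT (x axis) and iKD cells (y axis) of IN2, in UMIs per 10,000 UMIs of a cell with 0.01 added, on log axes, in all IN2 cells (left) and in sub-clusters 2 to 4 (right), for the 4294 genes that passed the filter in all IN2 cells. Dotted lines mark a log2 ratio of 1 in either direction. Ttr lies far above the diagonal in both (log2 ratios 4.78 and 4.81), Dcx does so in all IN2 cells only (4.66), and most members of the long neuronal list lie below it in sub-clusters 2 to 4.

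The other genes lower in iKD fell into neuronal and non-neuronal ones. Hs6st3, a heparan sulfate sulfotransferase, had 142 UMIs in WT and 6 in iKD cells of IN2 (log2 ratio −3.41), Dpp10, an auxiliary subunit of potassium channels, 61 and 3 (−2.95, −5.26 to −1.33), the potassium channel gene Kcnc2 46 and 3 (−2.54) and the glypican gene Gpc6 57 and 3 (−2.42). In 1 iKD cell all 6 Hs6st3 UMIs were found. Without sub-cluster 1 the counts were 71 and 0 for Hs6st3, 36 and 3 for Kcnc2 and 8 and 0 for Gpc6. For Dpp10 they were 9 and 2 (−0.98, −4.23 to 1.29), an interval that includes 0. The interleukin receptor gene Il15ra was found in 40 WT and 3 iKD cells (47 and 4 UMIs, −2.23, −4.16 to −0.77) and was at 0 in sub-cluster 1. Alox5, a lipoxygenase of myeloid cells, had 46 and 6 UMIs (−2.07), Clcn7, a lysosomal chloride transporter, 34 and 4 (−2.07), Pkp4 90 and 11 (−2.14), Bcr 39 and 5 (−2.02) and Tmc7 80 and 6 (−1.98). In the other clusters without Astrocytes the log2 ratios of these 6 genes lay nearer to 0, at −0.14 for Il15ra, 0.19 for Alox5, −0.15 for Clcn7, 0.00 for Pkp4, −0.10 for Bcr and −0.32 for Tmc7. They were chosen as the extremes of the ratio in IN2, where each rests on 4–11 UMIs in iKD.

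The microglia list was slightly lower in iKD than in WT cells over all of IN2, but not within sub-cluster 2. The list summed to 194 in WT and 168 in iKD cells of IN2 (log2 ratio −0.21, −0.26 to −0.16). Of its 17 genes 0 were past the fold, where 7.55% of all genes compared were. The log2 ratio was −2.71 within sub-cluster 1, 0.09 (0.02 to 0.16) within sub-cluster 2, −0.20 within sub-cluster 3 and −0.30 within sub-cluster 4. In cells with 2000 or more genes the list had a log2 ratio of −0.051 (−0.13 to 0.02), an interval that includes 0. In sub-clusters 2 to 4 the list summed to 205 and 192 (−0.09, −0.14 to −0.05), and in the other clusters without Astrocytes to 528 and 513. Cx3cr1 had a level of 18.5 in WT and 16.8 in iKD, and P2ry12 14 and 15.2. Members further apart, named for their ratios, were Aif1 (log2 ratio −0.86, −1.57 to −0.20), P2ry13 (−0.72, −1.23 to −0.23), the Fc receptor-like gene Fcrls (−0.71, −0.96 to −0.46) and Tmem119, a membrane protein of microglia (−0.58, −0.89 to −0.27). Ribosomal protein genes summed to 95.6 in WT and 134 in iKD (0.48), but to 91.4 and 95 without sub-cluster 1 (0.06). Nav3 and Ccnd3 in sub-clusters 2 to 4 had log2 ratios of 0.21 and −0.01.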

How the data were processed

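EYFP+ DG cells of 1 WT and 1 iKD pool were analysed. Per the labels and the study's methods, the authors demultiplexed, aligned and deduplicated the reads with Cell Ranger 7.0.1, then filtered, log normalized with a scale factor of 10,000, integrated and clustered the cells with Seurat 4.1.1. The submitters' processing notes also list CASAVA 1.8.2, HISAT2 2.0.6, Subread, featureCounts and the build GRCh38, although the data are from mouse. The methods state a minimum of 2000 detected genes, while the deposited cells hold 1004–3999.

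The authors deposited natural log values of 1 plus UMIs per 10,000 UMIs of a cell, for 32285 genes in 12 tables, 1 per cluster. From these, whole UMI counts were recovered in 100% of values (tolerance 0.02), for totals of 44142118 (WT) and 37451839 (iKD) UMIs. No cell was left out, no doublet caller was run, and 0 columns were unused.

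The level of a gene is its mean over cells of UMIs per 10,000. Log2 ratios have a pseudocount of 0.01. Genes were compared at a level of at least 0.5 on the higher side and a UMI in at least 10 cells. For the groups by span the level was at least 0.1, with no minimum of cells. Summed UMIs have exact Poisson, shares exact binomial (Clopper-Pearson) and ratios binomial intervals at 95%. Cells were thinned to 1500 UMIs, the largest multiple of 500 that 90% of IN2 cells reach. Sub-clusters are a Ward clustering into 4 groups on 10 principal components of the 1000 most variable genes. Cells were scored female by Xist and male by Y-linked genes. Spans are from GENCODE M21 on GRCm38, matched by symbol for 99.1% of 9414 genes, which may not be the authors' build.

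The members and all 33 lists were chosen with earlier results of these data known. The genes named are the 4 markers, list members with the highest levels or at 0, the 10 genes with the highest level, the extremes of each ratio (15 between IN2 and other cells, 10 between genotypes) and the 5 leading genes of each sub-cluster. Some genes that this rule selects are not reported here. Extremes of sub-clusters 2 to 4 were added after the values were seen. The steps were tested on simulated data. Python 3.11.15, numpy 2.4.6, scipy 1.17.1, pandas 2.3.3 and matplotlib 3.10.9 were used.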

Additional observations from a re-analysis of the deposited data

Results flagged for a closer look

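The ratio of the long neuronal list between genotypes had opposite directions in female and male cells of IN2, scored by Xist and Y-linked UMIs. In female cells the list summed to 27.1 in WT and 39.9 in iKD (log2 ratio 0.56), and in male cells to 54.2 and 45.5 (−0.25). The difference was not tested. Sub-cluster 1 held 3 female and 4 male cells of WT and 9 female and 1 male of iKD. Without it the log2 ratios were −1.67 in female and −1.19 in male cells. Of the cells scored as one sex, 65.0% of WT and 78.3% of iKD cells of IN2 were female, against 62.0% and 76.5% in other cells.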

How the results depend on the processing

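No paired analysis was possible because each genotype has 1 library. Of 79 alternative values, 38 stayed within the counting interval or 1.5 times and 41 moved, and the cause was not tested. Among these 79 values no ratio whose interval excluded 0 changed sign. The long neuronal list between genotypes, whose interval includes 0, took either sign. The microglia list between genotypes was not among the 79 values for single sub-clusters. Within sub-cluster 2 its sign was the reverse of that over all IN2 cells (0.09, 0.02 to 0.16). The long neuronal list over other cells (log2 ratio 5.16) was 5.65 with summed UMIs as CPM, 4.33 with a pseudocount of 1, 6.12 in cells with 2000 or more genes, 4.73 in female and 5.43 in male cells, 5.21 after thinning, 4.06 without the 10 cells with the most UMIs of the list and 3.11 without sub-cluster 1. The microglia list over other cells (−1.47) was −1.52 as CPM, −1.50 with 2000 or more genes and −1.36 without sub-cluster 1. Between genotypes, the long neuronal list (0.02) was 0.16 with 2000 or more genes, 0.56 in female and −0.25 in male cells, 0.10 after thinning, 1.01 without the 10 cells, −1.83 without sub-cluster 1, −1.77 without both, 0.23 within sub-cluster 2, −1.12 within sub-cluster 3 and −2.63 within sub-cluster 4. The microglia list (−0.21) was −0.051 with 2000 or more genes, −0.14 in female and −0.14 in male cells and −0.092 without sub-cluster 1. Genes past the fold (324) numbered 494 as CPM, 16 with a pseudocount of 1, 1412 with 2000 or more genes, 581 in female cells, 822 in male cells (293 higher and 529 lower in iKD), 640 after thinning and 5450 of 15814 with no filter (2699 higher and 2751 lower). Genes of 200 kb or more (1.70) had 0.53 with a pseudocount of 1, 2.43 with 2000 or more genes, 1.49 in female cells, 1.28 with a level of at least 0.5 and 1.21 without sub-cluster 1. Cells with both kinds of transcript (33.0%) were 67.4% with limits of 1 and 3 UMIs, 14.6% after thinning and 54.2% with 2000 or more genes. Cells with Vegfa (2.78%) were 8.33% with 2000 or more genes. Leaving out sub-cluster 1 and the values within sub-clusters were chosen after seeing the data. With 1 library per genotype and few UMIs per cell, genes of low level are not resolved.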

Other observations

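Of the lists of cell activation, those of immediate early genes, antigen presentation and disease-associated microglia had lower sums in IN2 than in other cells. The immediate early and dissociation genes summed to 66.9 in IN2 and 116 in other cells (log2 ratio −0.80), and of 10 that passed the filter 3 were lower past the fold and 0 higher, where 20% of all genes were lower. Jun had a level of 19.0 and 38.6 and Fos 7.70 and 17.6, whereas Egr1 had 7.97 and 8.56. They stood at 7.12 in sub-cluster 1 and 72.0 in sub-clusters 2 to 4. The genes of antigen presentation (MHC) summed to 4.50 and 15.2, and 3 of 3 that passed were lower past the fold. B2m, the light chain of class I molecules, had 2.30 and 9.59, H2-D1 0.809 and 2.81, and the class II gene H2-Aa was at 0. The list of disease-associated microglia summed to 4.55 and 12.8, and 2 of 2 that passed were lower past the fold, with Apoe at 2.15 and 4.36 and Cd9 at 2.04 and 7.96. Itgax was at 0. The interferon response genes summed to 0.609 and 1.06, and 0 passed the filter. The aNSCs cluster had 18.8 for this list and the other cells without it 0.531, and IN1 had 0.513.

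Glucocorticoid response genes did not share a direction. They summed to 17.5 in IN2 and 16.7 in other cells, but Fkbp5, a chaperone induced by glucocorticoids, had 9.68 and 4.62 (log2 ratio 1.07) and Ddit4 0.282 and 1.03. The list had 19.4 in WT and 13.6 in iKD cells of IN2. Of the VEGF ligands and receptors, Nrp1 had a level of 2.44 in IN2 and 1.56 in other cells, Nrp2 0.718 and 0.605 and Vegfb 0.215 and 0.554. At 1500 UMIs they were found in 24.4% (19.5–29.8) and 19.7%, 7.32% (4.59–11) and 8.03%, and 4.18% (2.18–7.19) and 8.37% of the cells, in the same order. Kdr was found in 5 IN2 cells. Flt1 was found in 1 cell. Vegfc and Flt4 were found in 0 of 288 cells (up to 1.27%).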
